A study of Mus musculus with 144 samples.

Results

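The drug-metabolising CYP2 and CYP3A enzymes are cytochrome P450 proteins of the endoplasmic reticulum that oxidise drugs, steroids, fatty acids and bile acids in hepatocytes. They were taken as all gene symbols of the Cyp2b, 2c, 2d, 2f, 2g, 2j, 2r, 2u and Cyp3a groups. Of 24421 gene symbols, 47 matched, and the 37 with a mean of at least 1 CPM (count scaled to a fixed library total) in ad libitum liver are described here. The other 10 lay under it. Just inside the limit was Cyp2d34 with 1.27 CPM, and just outside it Cyp3a57 with 0.779 CPM. P450 enzymes take electrons from NADPH through P450 oxidoreductase and hold a heme that the liver must supply. Many genes of the CYP2B, CYP2C and CYP3A groups are induced by foreign compounds and bile acids through the nuclear receptors CAR and PXR, and several are expressed differently in male and female mouse liver. The circadian clock reaches such genes in part through proline and acidic amino acid-rich bZIP factors such as DBP and their competitor NFIL3.

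All samples came from male C57BL/6J mice on normal chow. The knockout is labelled a double knockout of REV-ERBα and REV-ERBβ, repressors of the clock loop, made in adult hepatocytes per the series' design text, and the controls are labelled WT. Whole liver was sampled in 2 feeding schedules, ad libitum and reverse-phase, the latter with food at the opposite phase of the day. The zeitgeber times (ZT, counted in hours from lights on) were 1, 4, 7, 10, 13, 16, 19 and 22, and each genotype has 3 libraries per time, 48 per schedule. Liver endothelial cells and Kupffer cells (liver macrophages) of both genotypes were isolated at ZT 4, 10, 16 and 22, with 24 libraries each. The columns name the genotypes GFP and CRE, read here as control vector and recombinase, so the effects of what was delivered and of the genotype cannot be told apart. No label ties a library to an animal of its own, and the p-values here therefore cover the spread among libraries, which may be technical. In liver the transcripts of the targeted genes were not lower at the median of the libraries labelled knockout: ad libitum Nr1d1 had a median of 15.8 normalised CPM (CPM corrected by TMM scaling) in controls, against 47.7 in the knockout, and Nr1d2 45.2 and 62.3. With reverse-phase feeding the medians were 19.6 and 90.7, and 53.7 and 73.1. In the isolated cells, which the deletion is not labelled for, median signals were 100.4 and 79.1 for Nr1d1 and 604 and 532 for Nr1d2 in endothelial cells, and 69.3 and 64.9, and 504 and 407, in Kupffer cells, with overlapping ranges. The labels do not give the deleted exons, and counts over a whole transcript do not show their loss, so these values do not check the genotype, and knockout below means a library labelled so.

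Ad libitum liver libraries held 4.57e+06 to 1.04e+07 counts, those of reverse-phase feeding 1.31e+07 to 2.62e+07, and the depth of the isolated-cell libraries is unknown. In liver, 4 ad libitum libraries and 1 reverse-phase library stood apart by their ribosomal RNA, their dependence on transcript length or their spread, as did 2 endothelial and 2 Kupffer libraries, and counts are given with and without them. Hepatocyte markers were abundant in all liver libraries: the sum of 7 had a median of 141480 normalised CPM in controls, against 123460 in the knockout, ad libitum. Of these 7, most of whose sum is Alb, 4 were called higher and 2 lower ad libitum (median 0.12 on the log2 scale), and 2 higher and 1 lower in reverse-phase feeding. Of 7 periportal hepatocyte markers 5 were called higher and 1 lower in each schedule, and of 7 pericentral ones 4 higher and 1 lower ad libitum and 1 higher and 1 lower in reverse-phase feeding. Other cell types moved with the genotype too. The sum of 5 stellate cell markers ranged from 108 to 275 normalised CPM in controls and from 149.6 to 333 in the knockout, and all 5 were called higher. The sum of 6 endothelial markers ranged from 63.2 to 157 and from 81.1 to 168, and all 6 were called higher. None of 6 Kupffer markers was called. With reverse-phase feeding 4 of 5 stellate and 3 of 6 endothelial markers were called higher. No marker of the hepatocyte, stellate, endothelial and Kupffer lists had a mean under 1 normalised CPM in either genotype. Of 5 cholangiocyte markers 1 was called higher in each schedule, and 2 had a mean under 1 in ad libitum controls. Of all genes tested, 13.5% were called higher and 13.7% lower ad libitum, and 12.7% and 14.1% in reverse-phase feeding. Alb, the albumin transcript, had a median of 100440 normalised CPM in controls, against 76180 in the knockout, ad libitum. The part of these shifts in the results below was not tested. In whole liver, fewer cells of a type and less RNA per cell cannot be told apart.

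The most abundant of these transcripts per length in ad libitum liver was Cyp3a11, the main PXR-inducible CYP3A of mouse liver, with a mean of 2276 CPM per kilobase of transcript over 48 libraries. It was followed by Cyp2c29, an arachidonic acid epoxygenase, with 1423 CPM per kilobase, the male-predominant testosterone hydroxylase Cyp2d9 with 1160, Cyp2d10 with 949 (both neighbours in a cluster on chromosome 15) and Cyp2f2, which activates naphthalene in mouse lung, with 780.5. The lowest was Cyp2d34 with 0.791 CPM per kilobase. Many of the genes lie in tandem clusters, on mm9 chromosome 5 for Cyp3a, 7 for Cyp2b, Cyp2f2 and Cyp2g1, 15 for Cyp2d and 19 for Cyp2c, and near-identical copies share reads. Of the 50-base windows of the Cyp2c40 transcript, 72.1% also occur in another gene, as do 54.8% of those of Cyp2c69, 52.8% of Cyp2c67, 43.3% of Cyp2c68, 40.5% of Cyp2d10 and 37.2% of Cyp2d11. The values of these genes are uncertain, since the counting could split or merge copies. No such window was found for Cyp2c70, Cyp2j9, Cyp2r1 or Cyp3a13, and 1.13% for Cyp2c55, while Cyp2c44 and Cyp2d13 could not be matched. Cyp2d13 is listed as a non-coding transcript. Cyp2d10 and Cyp2d11 are each listed with 2 genomic copies, and Cyp2d11 overlaps the same-strand Mir7684.

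**Figure D1:**
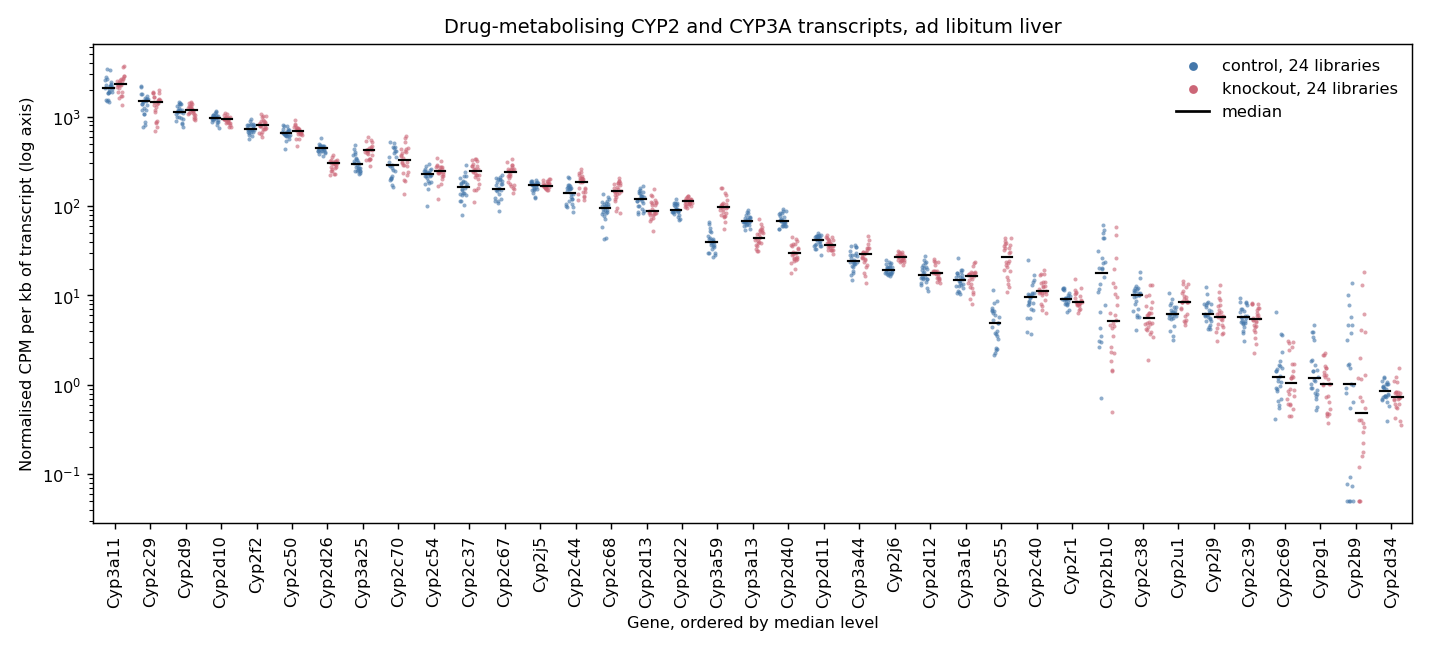
Level of the 37 CYP2 and CYP3A transcripts in ad libitum liver, as normalised CPM per kilobase of transcript on a log axis, for 24 control (blue) and 24 knockout (red) libraries, with a black line at each median. Libraries at 0 are drawn at 0.05. The genes span from Cyp3a11 to Cyp2d34, and for Cyp2d40 the 2 clouds do not overlap.

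The promoters of 4 genes are shown because they carry the comparisons below: Cyp3a11 as the most abundant, Cyp2c55 as the one that differed most, and Cyp3a25 and Cyp3a59 as a near-identical pair that both rose. The letters are the 250 bases before the RefSeq transcription start on GRCm38.p6, 5′ to 3′ on the gene's strand, with motif matches on either strand in capitals.
Cyp3a11: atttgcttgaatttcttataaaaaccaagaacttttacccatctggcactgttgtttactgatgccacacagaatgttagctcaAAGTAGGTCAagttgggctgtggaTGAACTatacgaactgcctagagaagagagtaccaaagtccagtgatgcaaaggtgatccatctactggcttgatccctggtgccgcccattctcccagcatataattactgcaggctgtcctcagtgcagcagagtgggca
Cyp2c55: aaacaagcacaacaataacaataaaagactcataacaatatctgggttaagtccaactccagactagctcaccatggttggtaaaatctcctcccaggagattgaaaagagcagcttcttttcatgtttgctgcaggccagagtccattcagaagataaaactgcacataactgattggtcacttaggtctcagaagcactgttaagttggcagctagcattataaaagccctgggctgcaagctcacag
Cyp3a25: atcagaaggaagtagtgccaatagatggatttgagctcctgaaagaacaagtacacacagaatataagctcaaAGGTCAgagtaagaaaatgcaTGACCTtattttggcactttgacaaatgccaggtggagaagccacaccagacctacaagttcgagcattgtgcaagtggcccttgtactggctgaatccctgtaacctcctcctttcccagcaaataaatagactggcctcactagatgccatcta
Cyp3a59: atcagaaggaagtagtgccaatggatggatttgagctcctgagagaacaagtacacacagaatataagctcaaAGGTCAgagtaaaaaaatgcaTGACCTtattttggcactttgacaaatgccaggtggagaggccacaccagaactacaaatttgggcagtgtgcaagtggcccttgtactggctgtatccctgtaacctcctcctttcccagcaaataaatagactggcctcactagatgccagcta
They lie at chr5:145879855-145880104 (minus strand), chr19:39006769-39007018 (plus strand), chr5:146009618-146009867 (minus strand) and chr5:146079008-146079257 (plus strand). The Cyp3a25 and Cyp3a59 windows are identical at 239 of 250 positions, or 95.6%. The motifs searched on both strands were the half-site AGGTCA of nuclear receptors, the same preceded by AANT, the monomeric element known for REV-ERB and ROR receptors, which contains the first, the variant nuclear receptor half-site AGTTCA, the D-box TTATGTAA and the E-box CACGTG. Of the 37 genes, 29 had a promoter in the RefSeq table. The element with AANT occurred in 1 of the 29, Cyp3a11, and in 0.177% of all 32851 promoters. AGGTCA occurred in 10 of them and in 14.0% of all promoters, AGTTCA in 5 and in 11.8%, CACGTG in 1, Cyp2j6, and in 6.02%, and TTATGTAA in 0 and in 0.819%. Cyp2c55, Cyp2b10 and Cyp2d40 held none of the 5 motifs in this window. A match describes the letters only.

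In knockout liver Cyp2c55 and Cyp3a59 were higher and Cyp2d40, Cyp2b10 and Cyp3a13 lower than in controls under both schedules. The abundant Cyp3a11, Cyp2d9, Cyp2d10 and Cyp2f2 did not pass the test in either schedule, while the abundant Cyp2c29 was lower in reverse-phase feeding only. The effect of genotype given here is knockout minus control on the log2 scale, taken between the fitted means over the day, tested with edgeR's quasi-likelihood test, and called where the Benjamini-Hochberg adjusted p over all genes is under 0.05. All 37 genes passed the filter on low counts. Ad libitum, 17 of 37 were called (10 higher, 7 lower), against 27.2% of 12569 genes tested (13.5% higher, 13.7% lower). Their median was 0.05 on the log2 scale, against -0.01 over all genes. With reverse-phase feeding 22 of 37 were called (12 higher, 10 lower), against 26.8% of 13838 genes (12.7% higher, 14.1% lower), with a median of -0.08 against -0.01. The 2 schedules share no library. In both, 16 genes were called in 1 direction (10 higher, 6 lower), or 43.2% of the 37, against 18% of the 12524 genes tested in both. That is 16 of the 17 called ad libitum and of the 22 in reverse-phase feeding. Without the libraries that stood apart, 18 and 22 genes were called.

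**Figure D2:**
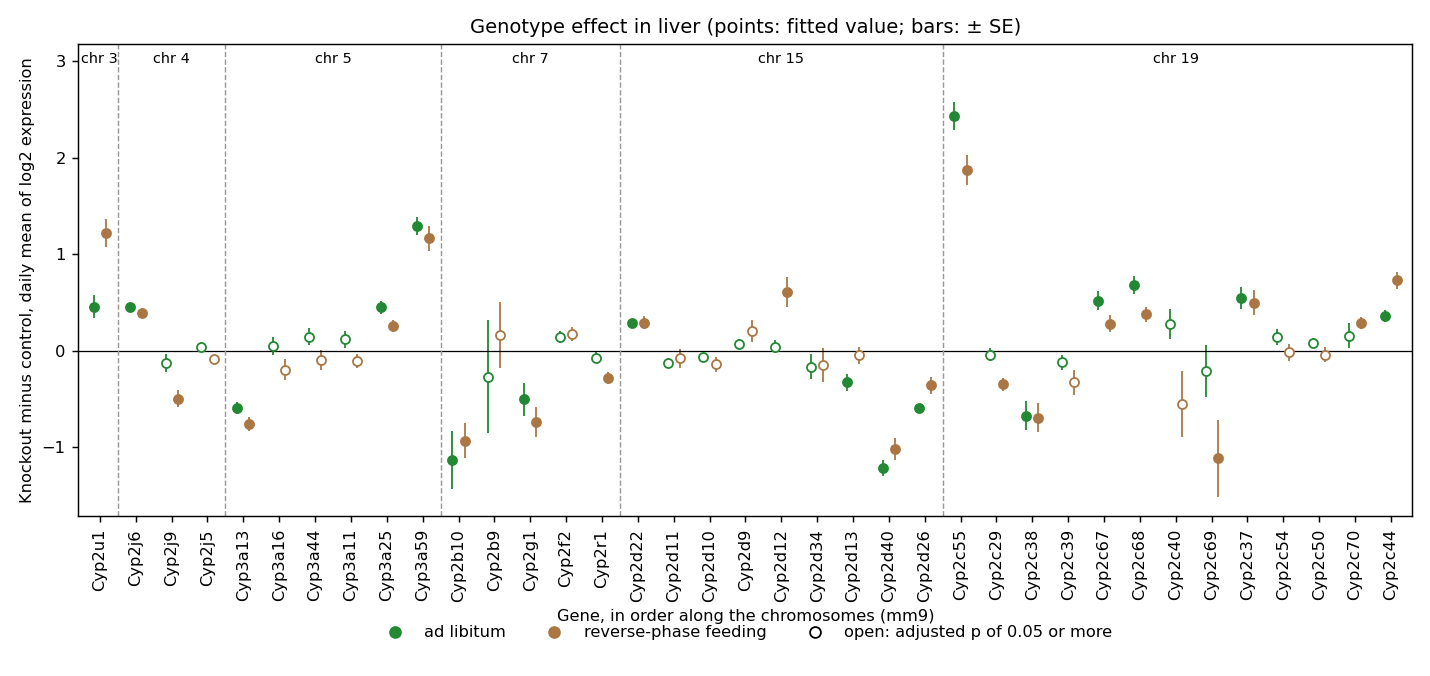
Genotype effect on each CYP2 and CYP3A transcript, as the knockout minus control difference of the daily mean of log2 expression, under ad libitum (green) and reverse-phase feeding (brown), with bars of ± 1 SE and genes in mm9 order. Open points have an adjusted p of 0.05 or more; Cyp2c55 stands highest, at 2.43 and 1.87.

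Among the Cyp2c genes, Cyp2c55, an arachidonic acid hydroxylase inducible through CAR and PXR (NM_028089, mm9 chr19:39081509-39117177), rose most. Its normalised CPM in control liver ad libitum were 4.29 at the lowest, 9.68 at the median and 22.5 at the highest of 24 libraries, and in the knockout 21.5, 53.2 and 87.9. The ranges overlapped in this schedule only at their edge, and at each of the 8 times the 3 knockout libraries lay above the 3 controls. The share of all genes apart at each time was not counted in either schedule. The effect was 2.43 ± 0.14 (SE, log2, n = 24 and 24), or 5.38-fold, with an adjusted p of 3.79e-18. With reverse-phase feeding the values were 4.52, 18.3 and 33.4 in controls and 22.6, 74.9 and 136 in the knockout, again with the knockout above at each of the 8 times. The effect was 1.87 ± 0.15 (adjusted p 1.17e-13). The ratio of group means ranged from 4.07 at ZT 7 to 8.13 at ZT 22 ad libitum and from 1.92 at ZT 22 to 5.76 at ZT 7 in reverse-phase feeding.

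Other Cyp2c genes moved less. Cyp2c44, an epoxygenase, had 276 ± 66.3 normalised CPM (SD, n = 24) in control and 353 ± 81.1 in knockout liver ad libitum, and 234 ± 58.6 and 391 ± 92.8 in reverse-phase feeding. It rose by 0.36 ± 0.06 and 0.73 ± 0.08 on the log2 scale (adjusted p 7.07e-06 and 1.74e-09). Cyp2c68 had 163 ± 40.8 and 262 ± 58.3 ad libitum, a rise of 0.68 ± 0.10 (adjusted p 2.65e-07), and 240.0 ± 59.3 and 312 ± 64.2 in reverse-phase feeding, a rise of 0.38 ± 0.08 (adjusted p 0.000131). Cyp2c37 and Cyp2c67 rose as well, by 0.55 and 0.52 ad libitum and 0.50 and 0.28 in reverse-phase feeding. The reverse-phase call of Cyp2c37 was lost without the libraries numbered 2 (0.30, adjusted p 0.172) or 3 (adjusted p 0.0625), and that of Cyp2c67 without those numbered 1 or 2 (adjusted p 0.150 and 0.149). Cyp2c38, another epoxygenase, went the other way. It had 28.6 ± 9.22 and 17.96 ± 8.18 normalised CPM ad libitum and 72.1 ± 20.6 and 44.97 ± 16.96 in reverse-phase feeding, and fell by 0.67 ± 0.15 and 0.69 ± 0.15 (adjusted p 0.000744 and 0.000336), the latter call being lost without the libraries numbered 1 (-0.41, adjusted p 0.0766). In all of these genes the ranges of the genotypes overlapped.

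Cyp2c29, Cyp2c69 and Cyp2c70 were called in reverse-phase feeding only. Cyp2c29 fell by 0.35 ± 0.07, from 4213 ± 922 to 3327 ± 836 normalised CPM, while its ad libitum effect was -0.04 ± 0.07. Cyp2c70, which makes muricholic acids, the rodent-specific bile acids, rose by 0.28 ± 0.06, and its ad libitum effect was 0.15 ± 0.13. Cyp2c69 fell by 1.11 ± 0.40 (adjusted p 0.0331), and this call was lost on leaving out control library number 1 of ZT 7, ZT 10 or ZT 13, with adjusted p of 0.0686, 0.0539 and 0.0536, and without all libraries numbered 1 (-0.41, adjusted p 0.640). None of the 3 differed between schedules by the interaction test (adjusted p 0.244, 0.786 and 0.958 for Cyp2c29, Cyp2c69 and Cyp2c70). Cyp2c39, Cyp2c40, Cyp2c50 and Cyp2c54 were not called in either schedule, with effects from -0.12 to 0.28 ad libitum and from -0.55 to -0.02 in reverse-phase feeding. Some of these lay near the threshold. In reverse-phase feeding Cyp2c39 was called lower by DESeq2 (adjusted p 0.0459), with time as a factor (adjusted p 0.0488) and on leaving out some single libraries (lowest adjusted p 0.0232), and Cyp2c40 without the libraries numbered 3 (-1.16, adjusted p 0.0187). Ad libitum Cyp2c50 was called higher with its longest transcript (0.15, adjusted p 0.0171), and Cyp2c40 without 1 control library of ZT 4 (adjusted p 0.0314).

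Of the Cyp3a genes, Cyp3a59 (NM_001105160, chr5:146890834-146924859) and its neighbour Cyp3a25 (NM_019792, chr5:146788770-146821193) rose together. Cyp3a59 had 53.7, 78.6 and 132 normalised CPM at the lowest, median and highest control library ad libitum and 111, 193 and 314 in the knockout. The knockout libraries lay above the controls at each of the 8 times, although the ranges over the day overlapped. The effect was 1.29 ± 0.10 (adjusted p 4.06e-15). With reverse-phase feeding it had 40.5, 93.5 and 261 in controls and 119, 209 and 331 in the knockout, an effect of 1.16 ± 0.13 (adjusted p 4.01e-10), and the groups were apart at 7 of 8 times. For these separations by time too, the share of all genes was not counted. Cyp3a25, with the near-identical promoter window printed above, had 613 ± 135 and 831 ± 154 ad libitum and 959 ± 157 and 1147 ± 179 in reverse-phase feeding, and rose by 0.45 ± 0.07 and 0.26 ± 0.06. The 2 transcripts share 24.7% of the windows of Cyp3a59, so part of its counts may be those of Cyp3a25.

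Cyp3a13, a CYP3A known from intestine as well as liver, fell. It had 157, 198 and 269 normalised CPM in controls ad libitum and 93.0, 131 and 212 in the knockout, an effect of -0.59 ± 0.06 (adjusted p 8.84e-11). With reverse-phase feeding it had 188, 258 and 395.5 in controls and 109.9, 151 and 234 in the knockout, an effect of -0.76 ± 0.07 (adjusted p 5.28e-12). The ranges overlapped in both schedules. Cyp3a11 had 4431 ± 1050.3 normalised CPM in control livers and 4829 ± 1138 in the knockout ad libitum, and 6271 ± 1256 and 5876 ± 1259.6 in reverse-phase feeding. Its effects of 0.12 ± 0.09 and -0.10 ± 0.08 were not called (adjusted p 0.331 and 0.333). Cyp3a16 and Cyp3a44 were not called either.

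In the Cyp2d cluster Cyp2d40 (NM_023623, chr15:82590263-82594552) fell most. It had 61.3, 74.7 and 103 normalised CPM at the lowest, median and highest control library ad libitum and 19.7, 32.6 and 49.2 in the knockout. No knockout library reached the lowest control, which held for 0.0636% of all genes tested in the lower direction and for Cyp2d40 alone among the 37. The effect was -1.21 ± 0.08 (adjusted p 1.61e-16). With reverse-phase feeding the values were 28.1, 63.6 and 98.5 in controls and 12.5, 30.1 and 51.9 in the knockout, an effect of -1.02 ± 0.11 (adjusted p 8.65e-10), with overlap. No member was without overlap in that schedule, against 0.0434% of genes in the lower direction. Of its transcript windows 24.1% occur elsewhere, most often in Cyp2d41-ps. Cyp2d26 had 722 ± 71.3 and 477 ± 65.3 ad libitum and 1039 ± 216 and 808 ± 199 in reverse-phase feeding, and fell by 0.60 ± 0.05 and 0.36 ± 0.09 (adjusted p 2.45e-14 and 0.00145), the latter call being lost without the libraries numbered 1 (-0.21, adjusted p 0.144). Cyp2d22 rose by 0.29 in each schedule, and its reverse-phase call was lost without the libraries numbered 2 (0.18, adjusted p 0.0644). Cyp2d13 fell by 0.33 ± 0.09 ad libitum, with an effect of -0.05 ± 0.09 in reverse-phase feeding, and Cyp2d12 rose by 0.61 ± 0.16 in reverse-phase feeding, with an effect of 0.04 ± 0.07 ad libitum. For neither was a difference between the schedules called (interaction adjusted p 0.591 and 0.144), and both calls were lost without the libraries numbered 2 (-0.23, adjusted p 0.149, and 0.37, adjusted p 0.204). Cyp2d9, with 1856 ± 329.9 and 1950 ± 259 normalised CPM ad libitum and 1215 ± 302 and 1389 ± 384 in reverse-phase feeding, was not called, and neither were Cyp2d10 (1589 ± 157 and 1516 ± 142 ad libitum), Cyp2d11 and Cyp2d34. Ad libitum Cyp2d11 was called lower without the libraries that stood apart (-0.15, adjusted p 0.0188), and in reverse-phase feeding Cyp2d10 without those numbered 2 (-0.26, adjusted p 0.0289).

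Cyp2b10, the classic CAR target gene (NM_009999, chr7:26682677-26711643), fell. Its control libraries ad libitum had 1.32, 33.5 and 113 normalised CPM at the lowest, median and highest, and the knockout 0.917, 9.58 and 108. The ranges thus overlapped almost fully, and the ratio of group means ran from 0.138 at ZT 7 to 3.10 at ZT 10. The effect on the daily mean was -1.13 ± 0.30 (adjusted p 0.00358), and -1.01 with an adjusted p of 0.0702 without the libraries numbered 2. With reverse-phase feeding it had 58.3, 181 and 495 in controls and 25.9, 69.3 and 275 in the knockout, an effect of -0.93 ± 0.18 (adjusted p 6.79e-05). Group means were lower in the knockout at each of the 8 times there, by ratios of 0.205 to 0.753. Cyp2b9, a female-predominant neighbour, was not called. Cyp2g1, best known from olfactory mucosa, had 3.07 ± 2.21 and 2.05 ± 1.05 normalised CPM ad libitum and 2.79 ± 1.22 and 1.64 ± 0.643 in reverse-phase feeding. It fell by 0.50 ± 0.17 and 0.74 ± 0.16 (adjusted p 0.0198 and 0.000256), and its ad libitum call was lost without the libraries numbered 2 or 3 (adjusted p 0.130 and 0.291).

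The remaining genes are the fatty acid and vitamin D enzymes. Cyp2u1, a fatty acid hydroxylase in humans, had 7.32, 14.4 and 24.98 normalised CPM in controls ad libitum and 10.995, 19.6 and 34.1 in the knockout, and rose by 0.46 ± 0.12 (adjusted p 0.00264; 0.0543 without the libraries numbered 3). With reverse-phase feeding it had 1.40, 4.80 and 14.2 in controls and 4.36, 10.4 and 20.3 in the knockout, and rose by 1.22 ± 0.14 (adjusted p 1.57e-09). Cyp2j6 rose by 0.45 ± 0.04 and 0.39 ± 0.05 (adjusted p 4.32e-12 and 4.21e-08). Cyp2j9 and the vitamin D 25-hydroxylase Cyp2r1 fell in reverse-phase feeding, by 0.50 ± 0.09 and 0.28 ± 0.06, and their ad libitum effects were -0.12 ± 0.09 and -0.07 ± 0.06. The epoxygenase Cyp2j5 and Cyp2f2 (1340.3 ± 165 and 1479 ± 227 normalised CPM ad libitum) were not called. Cyp2f2 was called higher ad libitum without the libraries numbered 2 (0.22, adjusted p 0.0137) and in reverse-phase feeding without those numbered 1 (0.23, adjusted p 0.0162), and Cyp2j5 lower in reverse-phase feeding without those numbered 2 (-0.13, adjusted p 0.0396).

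Whether the genotype effect differed between the schedules was tested in a joint fit, which also takes in any other difference between the 2 tables. An unadjusted p under 0.05 was found for 13 of the 37 genes, and the share of all genes under it was not counted. By the adjusted p 1 was called, against 0.199% of 13566 genes (0.0885% with a larger and 0.111% with a smaller log2 change in reverse-phase feeding). It was Cyp2u1, whose rise was larger in reverse-phase feeding by 0.77 ± 0.19 (adjusted p 0.0406). This call was lost without the libraries numbered 1 (0.44, adjusted p 0.687) or 2 (0.80, adjusted p 0.506) and without the filter on low counts (adjusted p 0.056). Of its windows, 11.5% occur in 4930534D22Rik.

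**Figure D3:**
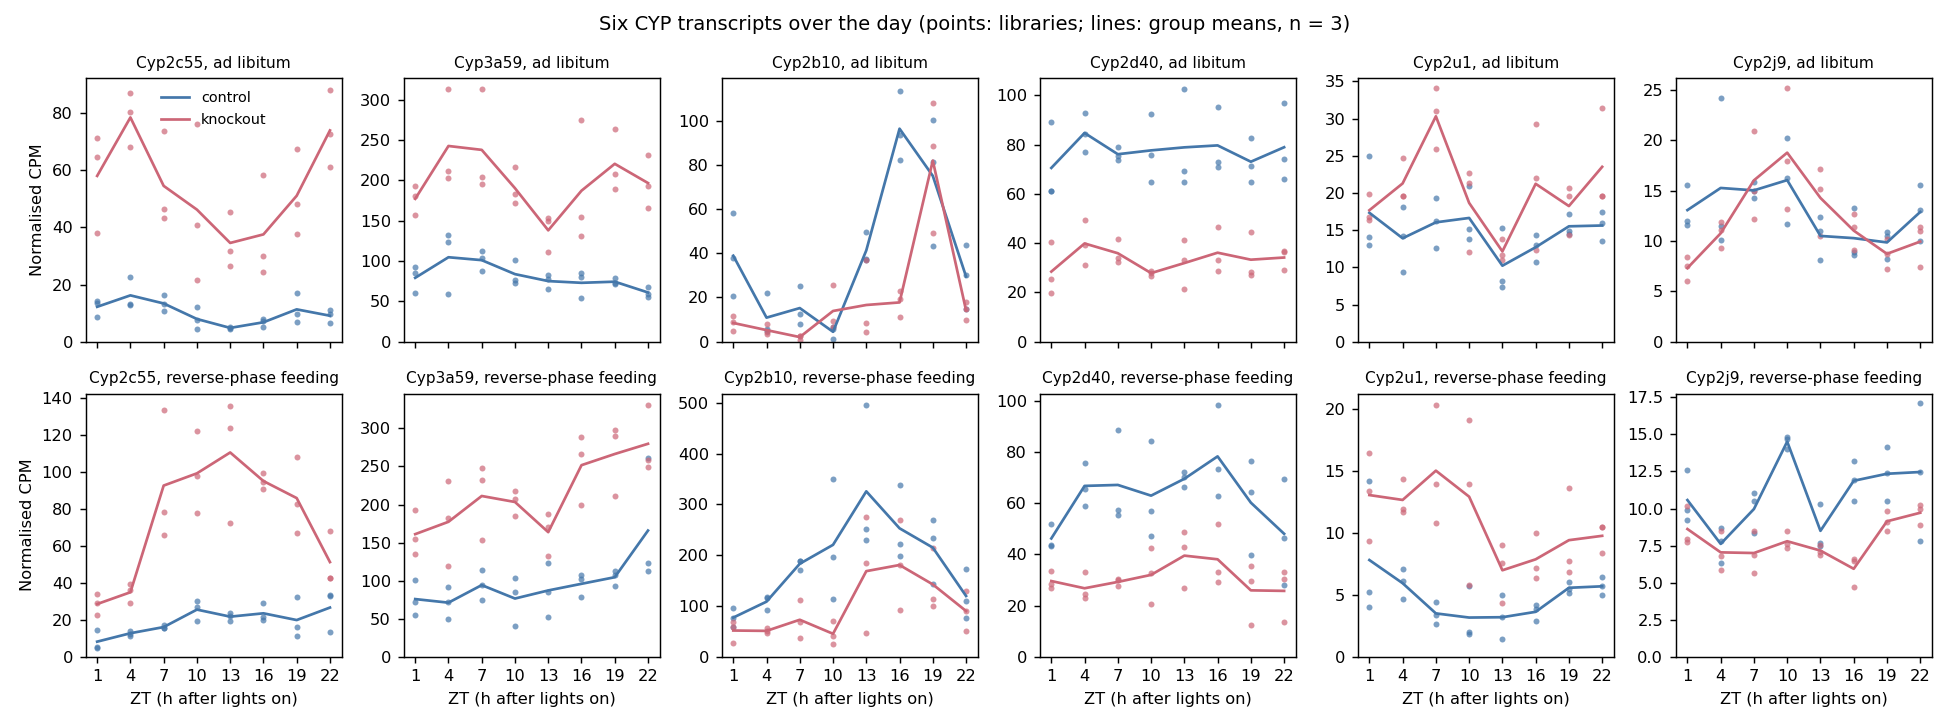
Normalised CPM of 6 transcripts over the day in ad libitum (top) and reverse-phase-fed (bottom) liver, as points for single libraries and lines through the means of 3, with controls in blue and knockouts in red. Cyp2c55 and Cyp3a59 run above, and Cyp2d40 below, the control line at each time.

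The genes that serve the P450 system were counted as lists, to be read against the 13.5% of all genes called higher and 13.7% called lower ad libitum, and 12.7% and 14.1% in reverse-phase feeding. Of 6 P450 partners, which pass electrons or supply heme, 2 fell ad libitum and 4 in reverse-phase feeding, and 0 rose. Cyb5a, cytochrome b5, fell by 0.26 ± 0.05 and 0.29 ± 0.08, and Pgrmc1, a heme-binding P450 partner, by 0.17 ± 0.04 and 0.25 ± 0.05. The reductase Por had an effect of 0.01 ± 0.09 ad libitum and was not called. Of 13 regulators, 2 rose and 6 fell ad libitum, and 3 rose and 6 fell in reverse-phase feeding. Nfil3 rose by 1.21 ± 0.08 and 1.36 ± 0.10, and Dbp by 1.14 ± 0.25 and 1.51 ± 0.18. Nr1i3, which encodes CAR, fell by 0.49 ± 0.10 and 0.31 ± 0.08. Nr1i2, which encodes PXR and was named after its values were seen, fell by 0.16 ± 0.06 and 0.18 ± 0.06. The list medians were 0.01 and -0.20 for the partners and -0.15 in each schedule for the regulators, against -0.01 over all genes.

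The lists below are read against the same shares of all genes. These were 13.5% called higher and 13.7% lower ad libitum, and 12.7% and 14.1% in reverse-phase feeding. Among 14 female-predominant liver genes, 9 were tested ad libitum, of which 2 rose and 2 fell. With reverse-phase feeding 13 were tested, of which 2 rose and 1 fell. The 2 that rose in each were Cyp17a1, a steroid hydroxylase, by 2.99 and 2.77, and Cyp2a4, a near-identical copy of Cyp2a5 whose value is therefore uncertain, by 2.57 and 5.06. Acot3 fell by 3.57 and 3.37. The members on that list, Cyp2b9, Cyp3a16 and Cyp3a44, were not called in either schedule. Of 10 male-predominant genes, 3 rose and 2 fell ad libitum and 1 rose and 1 fell in reverse-phase feeding. Cyp4a12a fell by 1.38 and 2.10 in turn, and the member Cyp2d9 was not called. Of 11 other phase 1 genes, 3 rose and 4 fell ad libitum, and 2 rose and 5 fell in reverse-phase feeding. Cyp2a5, a coumarin hydroxylase, rose by 1.92 ± 0.12 and 1.70 ± 0.10.

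Daily rhythms were tested as a 24-h cosine curve in each genotype. In controls ad libitum, 17 of 37 genes were called rhythmic, against 48.1% of all genes tested, and 12 in reverse-phase feeding, against 41.2%. In the knockout the numbers were 12 against 44.1%, and 16 against 36.8%. Without the libraries that stood apart they were 16, 13, 13 and 15 in the same order. These shares lie on both sides of the background. The largest peak-to-trough range in controls ad libitum belonged to Cyp2b10, with 8.27-fold and a peak at ZT 18.4 ± 0.71 (SE in hours), followed by Cyp2g1 with 4.24-fold and Cyp2c55 with 2.36-fold. Cyp2b10 had 4.49 ± 2.79 normalised CPM at ZT 10 and 96.3 ± 15.8 at ZT 16 (SD, n = 3), and the 3 libraries of ZT 16 lay above all 3 of ZT 10. Those of ZT 16 numbered 2 and 3 are among the libraries that stood apart. The values describe a gene already called rhythmic and are no further test.

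For a difference of rhythm between the genotypes, 6 genes had an unadjusted p under 0.05 ad libitum, and the share of all genes under it was not counted. By the adjusted p such a difference was called for 1 gene, against 3.37% of all genes tested. It was Cyp2j9, known from mouse brain (NM_028979, chr4:96235120-96258176). Controls peaked at ZT 5.63 with a 1.58-fold range, and knockouts at ZT 10.1 with a 2.17-fold range (adjusted p of the difference 0.0393). At ZT 1 controls had 15.6, 11.6 and 11.99 normalised CPM and knockouts 7.54, 8.37 and 6.01, without overlap. This was the time with the lowest ratio of group means (0.560), and the groups were apart at only 1 of the 8 times. How many of all genes were apart at a time was not counted. The call was lost without the libraries numbered 1 or 3 (adjusted p 0.458 and 0.358). With reverse-phase feeding 0 genes were called by edgeR, against 1.51%, and DESeq2 called 1, Cyp2c67 (adjusted p 0.0397), which edgeR also called without the libraries that stood apart (0.0439). An unadjusted p under 0.05 was found for 3 genes there, again without a count over all genes.

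The control rhythm differed between the schedules in 17 of 37 genes (45.9%), and in 18 without the libraries that stood apart. Over all 13566 genes the share was 53.6%, so a called difference was not more frequent among these genes. The test sees all that differs between the 2 tables. There were 8 genes called rhythmic in controls of both schedules, and all 8 were among the 17. How often this held among all genes rhythmic in both schedules was not counted. Cyp2c29 peaked at ZT 23.8 ± 0.68 ad libitum and at ZT 12.7 ± 0.76 in reverse-phase feeding, with ranges of 1.77-fold and 1.62-fold (adjusted p of the difference 7.96e-09). Its controls had 3221, 3891 and 3798 normalised CPM at ZT 1 and 1880, 1446 and 1564.5 at ZT 13 ad libitum, and 4078, 2351 and 2637 at ZT 1 and 5723, 4361 and 4940 at ZT 13 in reverse-phase feeding. The 2 times were apart in opposite directions. They lie near the fitted peaks of the 2 schedules, so these values illustrate the fit and are no further test. Cyp2j5 (614 ± 72.5 and 606 ± 67.9 normalised CPM in controls of the 2 schedules) peaked at ZT 23.9 ± 0.70 and ZT 12.7 ± 0.83, with an adjusted p of the difference of 1.34e-08. Cyp2c55 peaked at ZT 2.70 ± 0.98 and ZT 15.1 ± 1.22, and Cyp2r1 at ZT 2.21 ± 0.99 and ZT 12.1 ± 1.01. For these 4 genes the peak moved by 9.93 to 11.6 h. The rhythm of Cyp2c55 was not called without the libraries numbered 3 ad libitum (adjusted p 0.106), nor in reverse-phase feeding without those of any 1 number (adjusted p 0.0998 to 0.197). That of Cyp2r1 was lost without those numbered 2 or 3 ad libitum (0.0950 and 0.0940) and 2 in reverse-phase feeding (0.138).

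Smaller moves were found in 3 genes and a long one in Cyp2g1. Cyp2c70 peaked at ZT 20.6 ± 1.01 and ZT 13.6 ± 0.41, Cyp2b10 at ZT 18.4 ± 0.71 and ZT 13.5 ± 0.78, and Cyp2c44 at ZT 9.63 ± 0.61 and ZT 15.4 ± 1.199. Cyp2g1, in contrast, peaked at ZT 7.37 ± 0.58 and ZT 22.1 ± 1.24, so that the peaks of the 8 genes lay between ZT 2.21 and ZT 23.9 ad libitum and 7 of them lay between ZT 12.1 and ZT 15.4 in reverse-phase feeding. On leaving out the libraries of 1 number, the rhythm calls were lost for Cyp2c70 ad libitum (adjusted p 0.0855 and 0.0673) and for Cyp2c44 (0.176 and 0.121) and Cyp2g1 (0.0755 and 0.321) in reverse-phase feeding. The other 9 genes with a called difference were Cyp2d9, Cyp2d22, Cyp2j9, Cyp3a25 and Cyp3a59, rhythmic in ad libitum controls, Cyp2c50, Cyp2c68 and Cyp2d13, rhythmic in reverse-phase controls, and Cyp2c54, rhythmic in neither. Several of these labels moved with the processing. The rhythm of Cyp3a59 ad libitum was lost with no filter on low counts (adjusted p 0.0550) and without the libraries that stood apart (0.0683), that of Cyp2d13 in reverse-phase feeding with no filter (0.0735) and without the libraries of any 1 number (0.121 to 0.148), and that of Cyp2c50 with its longest transcript (0.125), which was instead rhythmic ad libitum (0.00245). Cyp2c54 was called rhythmic in reverse-phase feeding by DESeq2 (0.0393), with a mean of at least 1 CPM as filter (0.0449) and without the libraries that stood apart (0.0467). Control means in the 2 schedules were, in normalised CPM, 255 ± 35.2 and 276 ± 49.5 for Cyp2d22, 197 ± 40.3 and 110.02 ± 26.2 for Cyp2d13, 1201 ± 153 and 1333 ± 286 for Cyp2c50 and 390.4 ± 74.2 and 603 ± 139.6 for Cyp2c54. Those of Cyp2c70 were 539.8 ± 189.7 and 371 ± 119, and those of Cyp2r1 15.3 ± 2.59 and 17.6 ± 2.93. Cyp2d9 peaked at ZT 10.4, Cyp2d22 at ZT 9.66, Cyp3a25 at ZT 5.71 and Cyp3a59 at ZT 6.54 ad libitum. Cyp2c50 peaked at ZT 11.99, Cyp2c68 at ZT 15.5 and Cyp2d13 at ZT 1.30 in reverse-phase feeding.

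The gathering of peaks was counted in a window from ZT 11 to ZT 16 that was chosen after the values were seen, so it is a description. With reverse-phase feeding 9 of the 12 genes rhythmic in controls peaked in it, against 23.5% of the 5698 rhythmic genes, and 12 of the 16 rhythmic in the knockout, against 21.2% of 5099. Ad libitum 2 of 17 did so in controls, against 18.2% of 6042, and 0 of 12 in the knockout, against 22.7% of 5545.

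**Figure D4:**
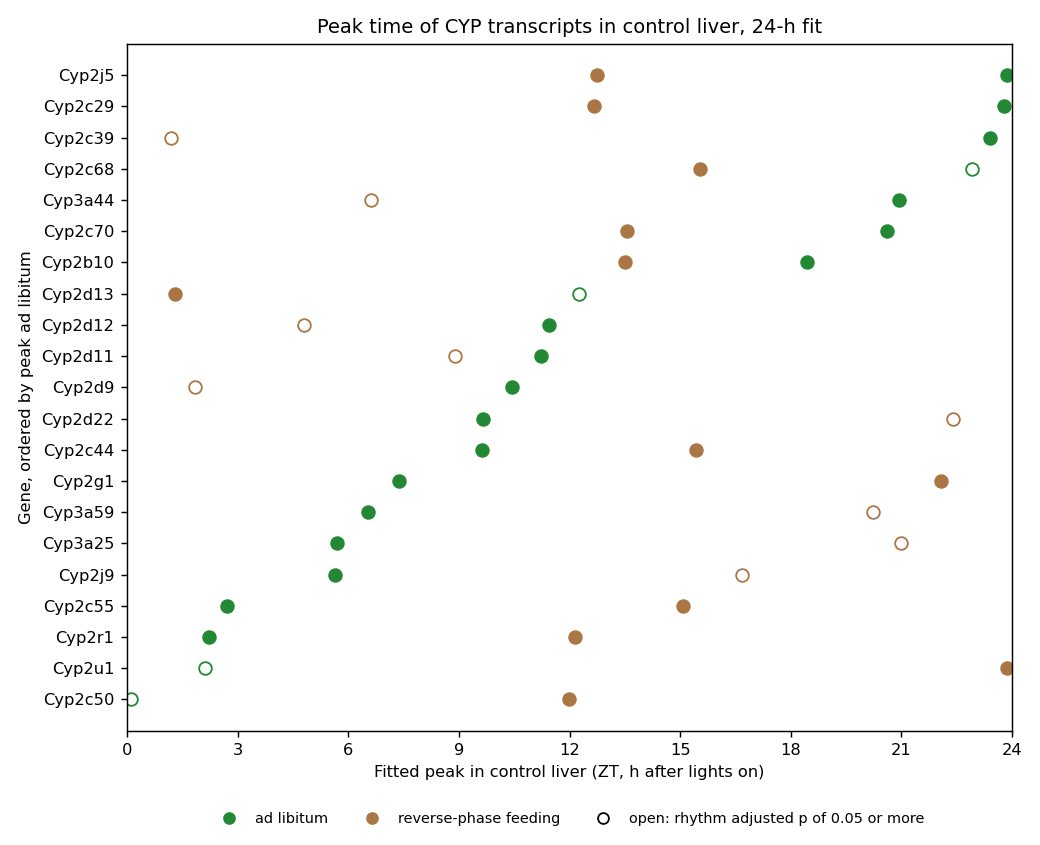
Fitted peak time in control liver, in hours after lights on, of each CYP2 and CYP3A transcript called rhythmic in at least 1 schedule, ad libitum in green and in reverse-phase feeding in brown, with open points where the rhythm was not called. Of the filled brown points 9 of 12 lie between ZT 11 and ZT 16, against 23.5% of all rhythmic genes. Of the filled green points 2 of 17 lie there, against 18.2%, and none lies between ZT 11.4 and ZT 18.4. The window from ZT 11 to ZT 16 was chosen after the values were seen.

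Levels also differed between the 2 liver tables, which share no library, so that feeding and other differences between the tables cannot be told apart. Over all 48 libraries, 6 of 37 genes differed more than 4-fold in mean CPM, or 16.2%, against 1.07% of the 12088 genes with at least 1 CPM ad libitum. Both sets were chosen by their ad libitum level, so genes low in that schedule are missing. How many lie lower or higher therefore depends on that choice. Lower in reverse-phase feeding were Cyp3a44 (52.8 and 2.56 CPM), Cyp2d12 (29.3 and 3.003), Cyp2d11 (62.3 and 8.78) and Cyp3a16 (26.6 and 3.91). In these 4 the libraries of the tables did not overlap, which held for 2.24% of the 12088 genes. Their transcripts share 26.5%, 17.9%, 37.2% and 10.7% of windows with other genes, which leaves their levels uncertain. Higher in reverse-phase feeding were Cyp2b9 (4.66 and 93.8 CPM) and Cyp2b10 (29.2 and 140). Cyp2b9 was listed at 0 in some ad libitum libraries and reached 34.2 normalised CPM in another, and in reverse-phase feeding it ran from 0.461 to 254 in controls.

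In the isolated cells 25 of the 37 genes in endothelial and 22 in Kupffer libraries passed the filter, and 0 were called between genotypes by limma, against 0.0319% of 12523 endothelial genes (0.024% higher, 0.00799% lower) and 0.0244% of 12270 Kupffer genes (0.0163% higher, 0.00815% lower). An unadjusted p under 0.05 was found for 5 and 2 of the members tested, and the share of all genes under it was not counted. The largest difference was that of Cyp3a59, with a signal of 8.55 ± 8.20 in control and 31.7 ± 29.7 in knockout endothelial cells (SD, n = 12 each), or 1.73 ± 0.34 on the log2(signal + 1) scale (adjusted p 0.0726). In Kupffer cells it had 6.22 ± 5.26 and 14.4 ± 12.01, or 1.19 ± 0.45 (adjusted p 0.9997). The knockout is labelled for hepatocytes, and hepatocyte RNA was present: the sum of 7 hepatocyte markers ranged from 6981 to 120100 in endothelial and from 4904 to 69597 in Kupffer libraries. Other liver cells were present too: beside a summed signal of 6 endothelial markers with a median of 54027 in control and 54785 in knockout endothelial libraries, 5 stellate markers summed to 10649 and 8825, and 6 Kupffer markers to 8292 and 6249. In Kupffer libraries 6 Kupffer markers summed to 76264 and 77346, 6 endothelial to 9260 and 9053, and 5 stellate to 1383 and 1341. Their part in the values below was not tested. Members were therefore set against Alb in the same library, and the ratio to Alb was divided by that in ad libitum liver. The median over the 37 genes was 0.476 in endothelial and 0.365 in Kupffer libraries, and 6 hepatocyte markers ranged from 0.194 to 2.75 and from 0.182 to 3.52.

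Above the range of the hepatocyte markers stood a few members. In endothelial cells Cyp2j9 reached 15.9, Cyp2j6 12.7, Cyp2r1 10.4, Cyp2d22 7.495 and Cyp2u1 3.29 times its liver ratio to Alb, and in Kupffer cells Cyp2r1 reached 18.5 times. Their signal was 32.6, 172, 23.1, 402 and 9.01 at the median of 24 endothelial libraries, and that of Cyp2r1 48.6 in Kupffer libraries. The abundant liver genes Cyp3a11, Cyp2c29 and Cyp2d9 lay under 1 in both cell types. These ratios compare a quantile-normalised signal with counts, and Alb itself differed between genotypes, so they are given without a test.

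**Figure D5:**
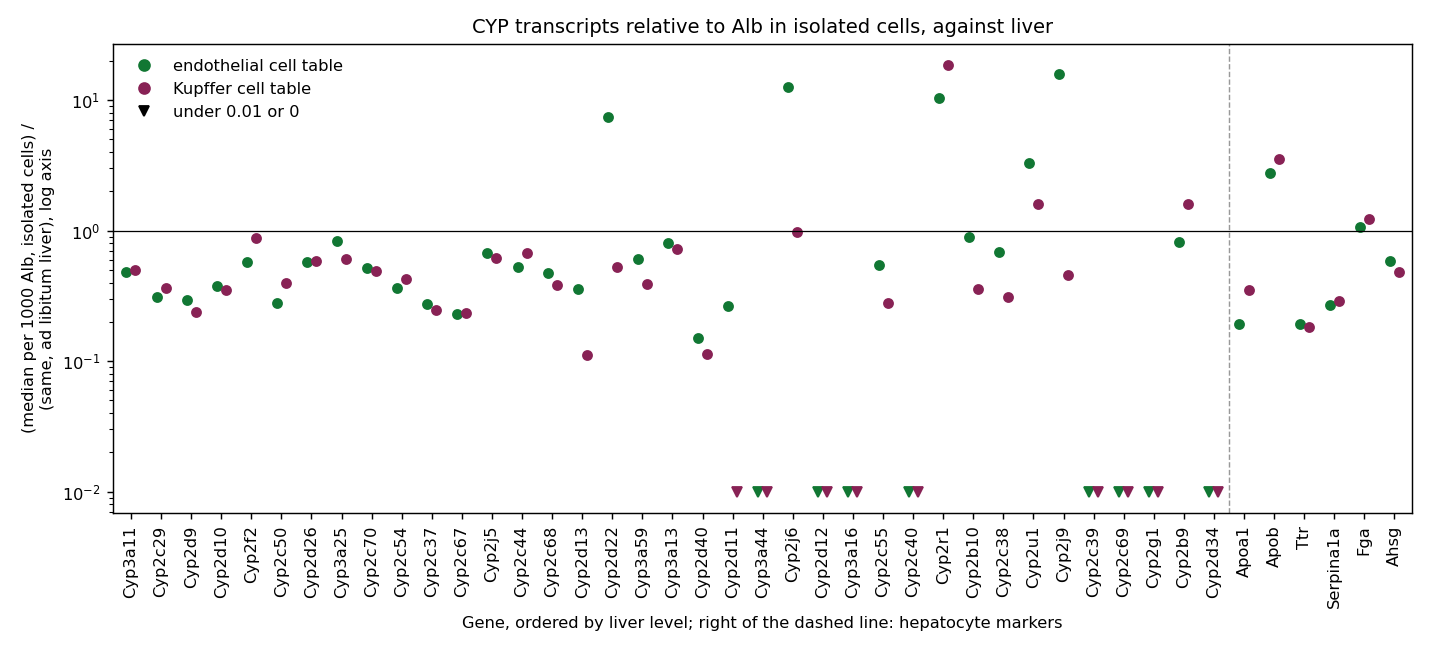
Level of each CYP2 and CYP3A transcript relative to Alb in endothelial (green) and Kupffer (purple) libraries, divided by the same in ad libitum liver, on a log axis, as medians over 24 and 48 libraries; triangles are under 0.01 or 0, and hepatocyte markers stand right of the dashed line. Cyp2j6, Cyp2j9 and Cyp2r1 in endothelial and Cyp2r1 in Kupffer libraries lie above 10.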

How the data were processed

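RNA of whole liver, endothelial cells and Kupffer cells was read from 4 deposited tables. Per the submitters' processing notes, STAR, HOMER and the mm9 build were used; no version is given in the sources used here. Liver tables from the authors hold expected counts for each transcript, in steps of 0.5 (29.5% and 31.9% of values not whole), which were rounded for the tests. For both isolated cell types the deposited signal looks quantile-normalised: all 24 columns of a table hold 1 set of sorted values. A count test had been planned there and was replaced by limma 3.58.1 on log2(signal + 1), for genes with a signal of at least 10 in 3 libraries. For each symbol the transcript with the largest mean was kept, with the tables' coordinates. Counts were tested with edgeR 4.0.16 in R 4.3.3 (TMM scaling, filterByExpr, quasi-likelihood), with a daily mean and the cosine and sine of 24 h per genotype, adjusting p over all genes; the joint fit gives each schedule its own terms. CPM are scaled to the table's total, and normalised CPM also by TMM. SE of log2 values and peaks are approximations from F. Shared windows were searched in GENCODE M21 transcripts and motifs in RefSeq promoters (GRCm38.p6); no sequence letter comes from mm9. The members, lists and tests were chosen with earlier results of these data known. Values are given for genes called in both schedules with at least a 1.5-fold change in 1, genes called for a rhythm or feeding difference, and the 5 most abundant, and up to 3 called genes per list. Alternatives were DESeq2 1.42.0 and its size factors, other filters, the replicate block, the longest transcript, time as a factor, other pseudocounts and leaving out libraries; the fit without libraries that stand apart (beyond 3 median absolute deviations, or above 5% of 45S ribosomal transcript in liver) was added after seeing the data. On simulated data the tests were checked before use. Whether replicate numbers pair the libraries is not settled by the correlation of same-numbered deviations. It was at most 0.175 on average, in Kupffer libraries numbered 2 (-0.0754 with those of other numbers), and fell to -0.45 in single pairs. No replicate pair of the liver tables was as alike as sampling noise allows (smallest chi-square over its degrees of freedom 4.95 and 11.6). Pairs of the isolated cells were not checked so, since their signal is not counts.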

Additional observations from a re-analysis of the deposited data

Results flagged for a closer look

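A set of results differed between conditions by a test of the difference itself. By edgeR's quasi-likelihood test, the genotype effect on Cyp2u1 was larger under reverse-phase feeding (adjusted p 0.0406), 1 of 37 genes against 0.199% of all. This call was lost without the libraries numbered 1 or 2 (adjusted p 0.687 and 0.506) and with no filter on low counts (0.056). The rhythm of Cyp2j9 ad libitum differed between genotypes (adjusted p 0.0393), 1 of 37 genes against 3.37% of all. That call was lost without the libraries numbered 1 or 3 (0.458 and 0.358).

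The control rhythm differed between the feeding schedules in 17 of 37 genes (45.9%), against 53.6% of all genes tested. The adjusted p of edgeR's quasi-likelihood test was as follows. In the Cyp2c group it was 7.96e-09 for Cyp2c29, 1.86e-06 for Cyp2c70, 0.000108 for Cyp2c55, 0.000346 for Cyp2c44, 0.00144 for Cyp2c50, 0.0159 for Cyp2c68 and 0.0212 for Cyp2c54. In the Cyp2d group it was 0.00286 for Cyp2d9, 0.00446 for Cyp2d13 and 0.0224 for Cyp2d22. It was 1.34e-08 for Cyp2j5, 3.98e-07 for Cyp2g1, 4.54e-05 for Cyp2r1, 0.000542 for Cyp2b10 and 0.00375 for Cyp2j9. In the Cyp3a group it was 0.000169 for Cyp3a25 and 0.00284 for Cyp3a59. The call of Cyp2d22 was lost without the libraries that stood apart (0.0776) and without those numbered 2 or 3 (0.283 and 0.277). On leaving out the libraries of 1 number, 13 to 15 genes were called. The calls lost were Cyp2c54 without number 1 (0.135), Cyp2d13 without 1 or 2 (0.0573 and 0.0651), and Cyp2c68, Cyp2d9 and Cyp2j9 without 3 (0.152, 0.0740 and 0.0558). Without the libraries that stood apart Cyp3a11 and Cyp3a16 were called as well (0.0298 and 0.0342). The 2 schedules come from separate tables, and feeding cannot be told apart from other differences between them.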

How the results depend on the processing

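No result changed direction past its threshold. With the replicate block 17 genes were called ad libitum and 22 under reverse-phase feeding for genotype, as without it, and it moved no count of members by more than 1.5 times. DESeq2 called 1 gene for a rhythm difference under reverse-phase feeding, and 329 of all genes against 209. Without the libraries that stood apart that count of members was also 1, and 2 genes of the whole endothelial table were called against 4. With no filter on low counts 0 members were called for the interaction.

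Leaving out single libraries or all of 1 number gave ranges that take in fewer samples. Genotype calls over all genes ran from 2159 to 3543 ad libitum and from 2425 to 3812 under reverse-phase feeding, and members called lower ad libitum from 4 to 8. Rhythm calls of members in controls ran from 10 to 14 ad libitum and from 6 to 11 under reverse-phase feeding, where all genes ran from 3568 to 3842. Rhythm calls of all genes in the knockout ran from 3617 to 4462 and from 2345 to 4343. The rhythm difference ran from 0 to 1 members and from 159 to 207 genes ad libitum, against 423, and from 41 to 83 genes under reverse-phase feeding. The interaction ran from 0 to 1 members, all higher, and from 6 to 23 genes, against 27. Endothelial genotype calls ran from 1 to 3 genes and Kupffer calls from 0 to 1, against 4 and 3. The cause was not tested, beyond the smaller number of libraries. The depth of the isolated-cell tables is unknown, so no detection limit is given there.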
